A study of Caenorhabditis elegans with 6 samples.

Results

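The genes described here are *Caenorhabditis elegans* genes known by a sequence name, the name of a sequencing clone and a number such as D1054.10, that were picked for lower RNA levels in dsRBD1 mutant than in *adr-2 (-)* neural cells. They were chosen on the measured values themselves. A gene was taken when its mean over the 6 libraries was at least 10 normalized units and its smallest value in *adr-2 (-)* cells was at least 1.5 times its largest value in dsRBD1 mutant cells, and D1005.1 was left out. This rule took 287 of the 6133 sequence-named genes with such a mean, out of 9857 sequence-named genes and 19793 genes in all. The 287 genes fell into 2 classes. In 141 of them reads were present in every *adr-2 (-)* library, so the groups did not overlap, and these are called the separated genes below. The other 146 were at 0 in all 3 dsRBD1 mutant libraries and also at 0 in at least 1 *adr-2 (-)* library, so that they met the rule as a tie at 0 and the groups were not separated. These are called the tied genes and are described apart.

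The dsRBD1 mutant cells came from *adr-2 (-)*;ADR-1 dsRBD1 animals, strain HAH57, which carry the *adr-2* (ok735) deletion and express FLAG-tagged ADR-1 with amino acid changes in the lysine motif of its first double-stranded RNA-binding domain. The *adr-2 (-)* cells came from strain BB78, animals with the same deletion and untagged, wild-type ADR-1, so that both groups lack ADR-2 and the FLAG tag differs along with the mutation. Both strains carry red and green fluorescent reporters driven by the *rab-3* promoter, which is active in neurons, and an *unc-119* rescue. Cells were isolated from L1 larvae, the larval stage just after hatching, which in both groups had hatched overnight in buffer without food after their parents were bleached. There were 3 independent biological replicates of each group, and poly(A) RNA was sequenced. Each group is a strain of its own, so a difference between the groups cannot be told apart from another difference between the strains. The comparison asks which RNAs in neural cells without ADR-2 depend on RNA binding by ADR-1.

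ADR-1 belongs to the family of adenosine deaminases that act on RNA. It binds double-stranded RNA but has no deaminase activity of its own, while ADR-2 is the enzyme that converts adenosine to inosine in worms. A gene in *C. elegans* keeps its sequence name until a mutant phenotype, a protein family or a known ortholog gives it another, so a sequence name says where a gene was first read and nothing about what it does. For most genes below no role is therefore given.

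The dsRBD1 mutant libraries held 12219263 to 18382009 reads on genes and the *adr-2 (-)* libraries 5686686 to 14658470. *adr-2 (-)* replicate 3 stood apart from the other libraries. In it 52.6% of the reads fell on *rrn-3.1*, a ribosomal RNA gene, against 14.0% to 21.3% in the dsRBD1 mutant libraries and 12.6% and 17.5% in the other *adr-2 (-)* libraries. It had reads on 10532 genes, against 11971 to 15887 in the dsRBD1 mutant libraries and 15018 and 15321 in the other *adr-2 (-)* libraries, and each read counted for 3.25 normalized units there, against 0.602 to 0.930 in the dsRBD1 mutant libraries. All 15 neuron markers were found, with summed values of 38553 to 49420 in dsRBD1 mutant and 36742 to 43369 in *adr-2 (-)* libraries, which overlapped. Markers of other tissues were present too. The 9 muscle markers summed to 300880 to 330216 in dsRBD1 mutant and 218019 to 360841 in *adr-2 (-)* libraries, a list that holds *unc-54*, whose 3′ end the green reporter also carries. The 11 intestine markers in the table summed to 63889 to 91036 in dsRBD1 mutant and 77706 to 84731 in *adr-2 (-)* libraries. In RNA from pooled cells, fewer cells of a type and less RNA per cell cannot be told apart.

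With limma across the 13705 genes with a mean of at least 10, no gene was called changed at an adjusted p under 0.05 with a log2 difference beyond 0.5 in either direction (0% of the genes tested), and 872 genes had an unadjusted p under 0.05. edgeR's quasi-likelihood test on the recovered reads called 0 genes as well, with 898 genes at an unadjusted p under 0.05. DESeq2 on the same reads called 274 genes lower and 43 genes higher in dsRBD1 mutant cells, and the lower ones were 1.98% of the 13844 genes to which it gave an adjusted p. Since the rule read the same contrast, no test is given for its members. The 141 separated genes were 2.3% of the 6133 sequence-named genes, and by the same rule 169 genes with other names were 2.23% of 7572. Over all names 310 genes (2.26% of 13705) were separated lower in dsRBD1 mutant cells, and 158 (1.15%) were separated higher by the mirrored rule, of which 89 had sequence names. With the ties at 0 the rule took 4.68% of the sequence-named genes and 4.14% of all genes.

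**Figure D1:**
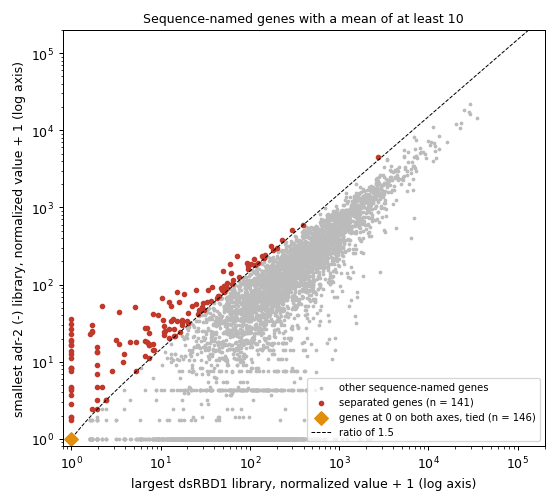
Each point is a sequence-named gene with a mean of at least 10, with its largest dsRBD1 mutant value on the x axis and its smallest *adr-2 (-)* value on the y axis, both as normalized value + 1 on log axes. The 141 separated genes lie above the dashed line at a ratio of 1.5, many of them at the left edge where dsRBD1 mutant values are at or near 0, and the diamond marks the 146 tied genes, which are at 0 on both axes.

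The separated genes summed to 5672, 5740 and 5388 normalized units in dsRBD1 mutant replicates 1, 2 and 3, and to 24825, 15532 and 41862 in *adr-2 (-)* replicates 1, 2 and 3. The dsRBD1 mutant sums were nearly equal, but a single gene, Y53F4B.45, made up 38.9% of their total. Without it they were 2925, 3721 and 3626 in replicates 1, 2 and 3. The *adr-2 (-)* sums differed widely, with replicate 3 highest and replicate 2 lowest. Over all separated genes the mean sums were 5600 ± 187 in dsRBD1 mutant cells and 27406 ± 13353 in *adr-2 (-)* cells (SD, n = 3 each). Without *adr-2 (-)* replicate 3 the *adr-2 (-)* mean was 20178. The median separated gene had a value of 0.930, 6.02 and 7.16 in dsRBD1 mutant replicates 1, 2 and 3, and 73.9, 33.8 and 153 in *adr-2 (-)* replicates 1, 2 and 3. On the log2(value + 1) scale the median difference, dsRBD1 mutant minus *adr-2 (-)*, was -3.92 over the separated genes and 0.09 over all genes tested. Without *adr-2 (-)* replicate 3 it was -3.27, over the 115 separated genes that still had a mean of at least 10. The other 26 fell below the minimum mean. Leaving out a single library moved the estimated fold by more than 1.5 times in 39 separated genes for dsRBD1 mutant replicate 1, 31 for replicate 2 and 37 for replicate 3, and in 16 for *adr-2 (-)* replicate 1, 56 for replicate 2 and 45 of the 115 for replicate 3. Without dsRBD1 mutant replicate 1 the difference was smaller in 38 of its 39 genes and without *adr-2 (-)* replicate 3 in 43 of its 45, while without *adr-2 (-)* replicate 2 it was larger in all 56.

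Most separated genes were of low abundance in dsRBD1 mutant cells. Of the 141, 23 had no read in any dsRBD1 mutant library, 25 had reads in 1 of them, 30 in 2 and 63 in all 3. dsRBD1 mutant replicate 1 was the emptiest, with 68 of the 141 genes at 0 against 46 in replicate 2 and 35 in replicate 3, and 25 genes were at 0 in replicate 1 alone. In the *adr-2 (-)* libraries the genes had a median of 82 reads in replicate 1, 46 in replicate 2 and 47 in replicate 3, and 133 of them had at least 3 reads in every *adr-2 (-)* library. Among the 102 genes with more than 3 reads over the dsRBD1 mutant libraries, the *adr-2 (-)* mean was 2.07 to 255 times the dsRBD1 mutant mean, with a median of 9.73. For the 23 genes without reads the *adr-2 (-)* mean was at least 10.7-fold to at least 88.9-fold higher, taking 3 reads in each dsRBD1 mutant library as the floor. Setting these genes at that bound, the median over all 141 was 15.8. Floors and intervals cover counting error only.

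**Figure D2:**
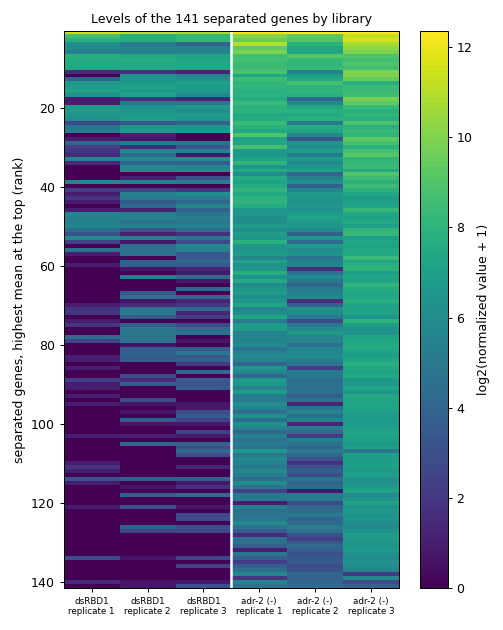
Rows are the 141 separated genes in order of their mean, the highest at the top, columns are the 3 dsRBD1 mutant and the 3 *adr-2 (-)* libraries, and the colour gives log2(normalized value + 1). The dsRBD1 mutant columns darken to 0 down the list, replicate 1 earliest, while *adr-2 (-)* replicate 3 is the brightest and *adr-2 (-)* replicate 2 the darkest of the *adr-2 (-)* columns.

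Levels of the separated genes varied widely among the *adr-2 (-)* libraries. The rule bounds *adr-2 (-)* values only from below and dsRBD1 mutant values only from above. Part of this spread may therefore come from the choice of genes. The highest *adr-2 (-)* value of a gene was 1.18 to 199 times its lowest, with a median of 5.22. It lay in replicate 3 for 111 genes, in replicate 1 for 24 and in replicate 2 for 6. The lowest value lay in replicate 2 for 101 genes, and 81 genes had the order replicate 3, replicate 1, replicate 2. In 25 genes the *adr-2 (-)* libraries lay within 2-fold of each other, and these genes had reads in dsRBD1 mutant cells and modest differences, the *adr-2 (-)* mean being 2.07 to 11.2 times the dsRBD1 mutant mean with a median of 2.66. In the 35 genes whose *adr-2 (-)* libraries lay 10-fold or more apart, 13 had no dsRBD1 mutant read and the remaining 22 had a median ratio of 83.0. Large differences and a wide spread among the *adr-2 (-)* replicates thus went together, and both measures use the same *adr-2 (-)* values.

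The same order of the *adr-2 (-)* libraries was seen in markers of the germline and of maternal RNA. The 24 markers on that list, all with a mean of at least 10, summed to 1515, 1469 and 2258 in dsRBD1 mutant replicates 1, 2 and 3, and to 10201, 2973 and 15271 in *adr-2 (-)* replicates 1, 2 and 3. The groups did not overlap, and 14 of the 24 genes were lower in every dsRBD1 mutant library. Over all genes with a mean of at least 10, 948 of 13705 (6.92%) were lower in every dsRBD1 mutant library. None of the 15 neuron markers was lower in every dsRBD1 mutant library. The 11 sperm markers in the table summed to 51.1 to 71.6 in dsRBD1 mutant and 37.4 to 377 in *adr-2 (-)* libraries, and 2 of them were lower in every dsRBD1 mutant library. For *msp-78*, 1 of these 2, the closest values were 0.602 in dsRBD1 mutant and 0.734 in *adr-2 (-)* replicate 2. Each stands for 1 read, so their order rests on the size factors alone. Of the 11 intestine markers 3 were lower in every dsRBD1 mutant library although their sums overlapped. The yolk protein gene *vit-2* had 223, 118.6 and 148 in dsRBD1 mutant cells, against 3917, 838 and 8083 in *adr-2 (-)* cells. *vit-6*, another yolk protein gene, had 351, 130.0 and 117 in dsRBD1 mutant cells, against 4166, 817 and 11339 in *adr-2 (-)* cells, so that both followed the order of *adr-2 (-)* libraries seen in the separated genes. The third, *pho-1*, an intestinal acid phosphatase gene, had 616, 595 and 588 in dsRBD1 mutant cells, against 651, 840 and 820 in *adr-2 (-)* cells. The sums of pharynx markers ran the other way, at 72581 to 91665 in dsRBD1 mutant and 52104 to 67128 in *adr-2 (-)* libraries. So did those of glia markers, at 1166 to 1377 in dsRBD1 mutant and 553 to 1026 in *adr-2 (-)* libraries. Gene by gene, 2 of the 6 pharynx, 1 of the 7 glia and 1 of the 9 muscle markers were higher in every dsRBD1 mutant library. The share of all genes that were higher in this way was not counted, so these counts have no reference. Epidermis markers overlapped, at 1584 to 13281 in dsRBD1 mutant and 1754 to 5994 in *adr-2 (-)* libraries, with *elt-3* alone lower in every dsRBD1 mutant library and *dpy-9* at 0 in all of them, and so did coelomocyte markers, at 255 to 295 in dsRBD1 mutant and 130 to 376 in *adr-2 (-)* libraries. The part of other cell types in the levels of the separated genes was not tested.

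**Figure D3:**
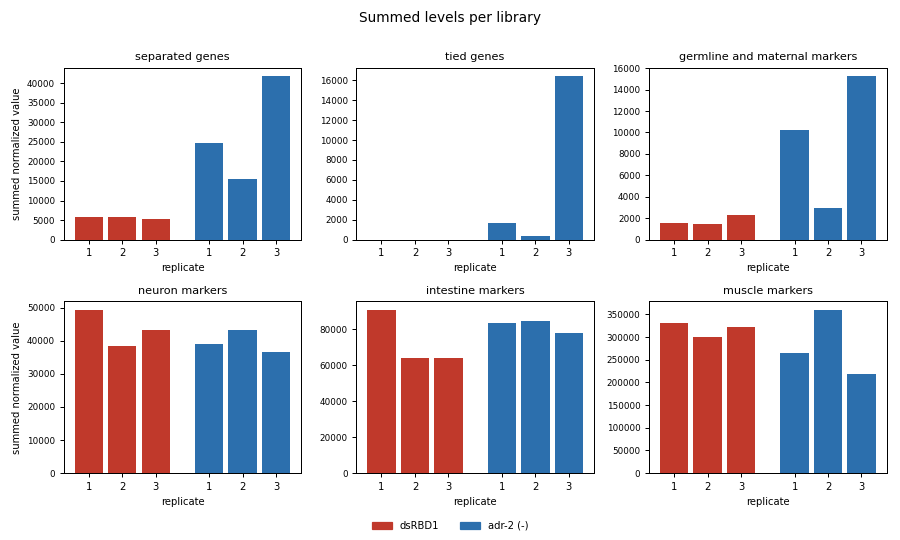
Bars give the summed normalized value in each of the 3 dsRBD1 mutant and the 3 *adr-2 (-)* libraries, each panel with its own axis from 0. Separated genes, tied genes and germline and maternal markers are lower in every dsRBD1 mutant library and have *adr-2 (-)* replicate 3 highest and replicate 2 lowest, whereas the sums of neuron, intestine and muscle markers overlap between the groups, the intestine sum although *vit-2*, *vit-6* and *pho-1* within it do not.

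The noncoding RNA Y53F4B.45 (chromosome II, 15042805 to 15044011, WBcel235) had the highest mean of the separated genes. It lies within an intron of *trip-4* and had normalized values of 2747, 2019 and 1762 in dsRBD1 mutant cells, against 4439, 5228 and 4944 in *adr-2 (-)* cells. Its log2 difference was -1.18, and leaving out any 1 library kept it between -1.36 and -1.04. This gene alone made up 38.9% of the summed value of the separated genes in dsRBD1 mutant cells and 17.8% in *adr-2 (-)* cells. Without it the sums were 2925, 3721 and 3626 in dsRBD1 mutant cells and 20386, 10304 and 36918 in *adr-2 (-)* cells.

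*srpr-2.2* (R144.15) and *srpr-2.1* (ZC155.8) are noncoding RNAs of 299 exonic bases each, both on chromosome III. *srpr-2.2* had values of 390, 229 and 289 in dsRBD1 mutant cells, against 1089, 596 and 2407 in *adr-2 (-)* cells, and overlaps R144.16 on the same strand. *srpr-2.1* had 231, 208 and 299 in dsRBD1 mutant cells, against 736, 505 and 2895 in *adr-2 (-)* cells. Both were highest in *adr-2 (-)* replicate 3, and without that library the log2 difference of *srpr-2.2* was -1.44, against -1.97 with it, and that of *srpr-2.1* was -1.32, against -2.07 with it. F31C3.16, another noncoding RNA of 299 exonic bases, on chromosome I, was much lower at 8.37, 13.2 and 13.6 in dsRBD1 mutant cells, against 20.7, 26.4 and 78.1 in *adr-2 (-)* cells. Per kilobase of exon, Y53F4B.45, *srpr-2.2* and *srpr-2.1* were close, with means over the 6 libraries of 2919, 2788 and 2716 normalized units. Only uniquely aligned reads were counted, so the values of genes with near-identical copies are uncertain.

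*rbm-3.1* (R09B3.2), which encodes a small protein with an RNA-binding motif, had values of 70.7, 34.9 and 15.03 in dsRBD1 mutant cells, against 1950, 235 and 1698 in *adr-2 (-)* cells. All *adr-2 (-)* libraries were above all dsRBD1 mutant libraries, but *adr-2 (-)* replicate 2 was far below the other 2. The means were 40.2 ± 28.2 in dsRBD1 mutant cells and 1294 ± 926 in *adr-2 (-)* cells (SD, n = 3 each), a log2 difference of -4.74. The gene lies at 11909366 to 11909991 on chromosome I and has 249 coding bases.

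The neighbouring genes F23A7.4 and F23A7.8 on the X chromosome behaved alike. Both are single-exon genes on the same strand, of 204 and 201 coding bases, with 560 bases between them. F23A7.4 had values of 38.1, 38.5 and 48.7 in dsRBD1 mutant cells, against 919, 150 and 953 in *adr-2 (-)* cells. F23A7.8 had values of 58.6, 45.1 and 39.4 in dsRBD1 mutant cells, against 656, 183 and 1210 in *adr-2 (-)* cells. In both, the dsRBD1 mutant libraries were close together and *adr-2 (-)* replicate 2 was the lowest of its group. The log2 differences were -3.59 for F23A7.4 and -3.45 for F23A7.8. The next gene along, F23A7.1, lies 3831 bases further on and was a tied gene, with 0 in every dsRBD1 mutant library, against 0, 22.8 and 48.8 in *adr-2 (-)* cells.

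D1054.10 (chromosome V, 10791975 to 10792875, 564 coding bases) combined a high level with a wide gap. Its values were 1.86, 2.41 and 1.43 in dsRBD1 mutant cells, from 2, 4 and 2 reads, against 453, 42.6 and 956 in *adr-2 (-)* cells, from 503, 58 and 294 reads. The log2 difference was -6.54, and -7.84 to -5.61 with 1 library left out. ZK185.9, a small nucleolar RNA gene in an intron of ZK185.2, had 0, 75.2 and 40.8 in dsRBD1 mutant cells, against 156, 125 and 1047 in *adr-2 (-)* cells. It was highest in *adr-2 (-)* replicate 3, and its log2 difference of -4.22 was -3.25 without that library. Leaving out a dsRBD1 mutant library moved it further, to -2.28 without replicate 1, which was at 0, and to -5.41 without replicate 2.

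The other 4 of the 12 genes with the highest means had replicates close together, with *adr-2 (-)* means 2.07 to 2.57 times the dsRBD1 mutant means. K03A11.5 had 229, 176 and 150 in dsRBD1 mutant cells, against 373, 552 and 498 in *adr-2 (-)* cells. B0252.3 had 180, 173 and 172 in dsRBD1 mutant cells, against 341, 280 and 488 in *adr-2 (-)* cells, and overlaps *psmd-9* on the opposite strand. Y53C12B.1 had 164, 172 and 167 in dsRBD1 mutant cells, against 348, 316 and 374 in *adr-2 (-)* cells. Relative to their means these are the tightest dsRBD1 mutant replicates among the 12 genes, with an SD of 3.99 around a mean of 167 for Y53C12B.1 and of 4.71 around a mean of 175 for B0252.3. F57C2.5 had 188, 200 and 146 in dsRBD1 mutant cells, against 407, 301 and 403 in *adr-2 (-)* cells. The log2 differences of these genes lay between -1.36 for K03A11.5 and -1.04 for B0252.3 and Y53C12B.1.

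**Figure D4:**
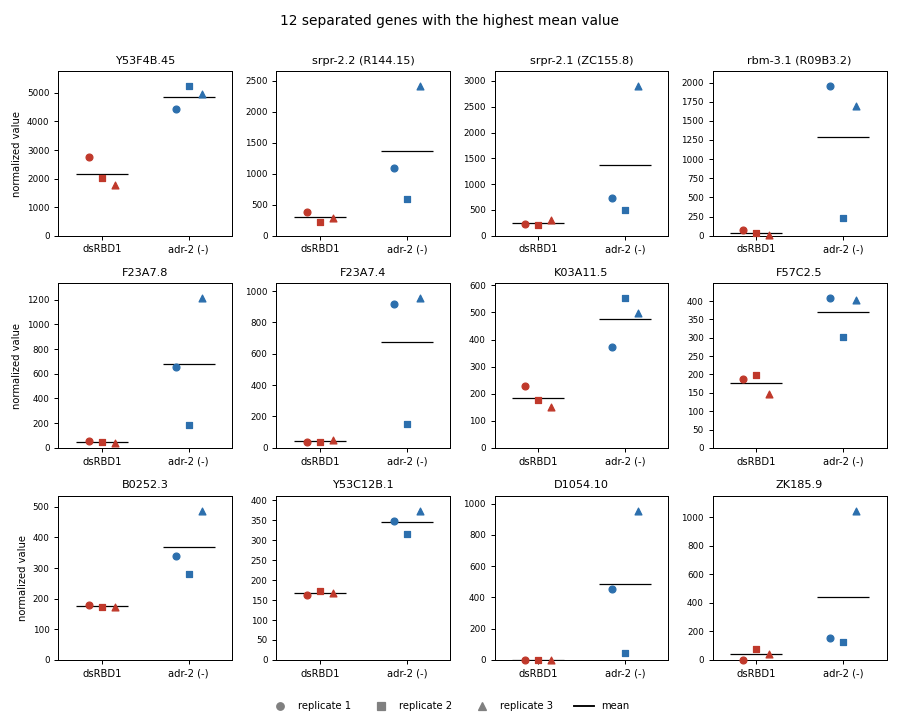
Normalized values of the 12 separated genes with the highest mean, with the 3 dsRBD1 mutant replicates in red at the left and the 3 *adr-2 (-)* replicates in blue at the right of each panel, a line at each group's mean and an axis from 0. Y53F4B.45, K03A11.5, F57C2.5, B0252.3 and Y53C12B.1 differ by 2.07 to 2.57 times with close replicates, and the other genes have at least 1 *adr-2 (-)* library far from the rest.

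Of the 141 separated genes, 13 carry a gene symbol in the present annotation, which the deposited table still lists by sequence name. Besides *srpr-2.2*, *srpr-2.1* and *rbm-3.1*, several of them are known from the germline or the early embryo. How many other sequence-named genes with a symbol are known from there was not counted. The remark is therefore a description and does not show that such genes are more frequent among the separated genes. *erh-2* (F35G12.11) and *tost-1* (C35D10.13) encode subunits of PETISCO, a complex that acts in piRNA production and, with TOST-1, in embryogenesis. *erh-2* had 0, 14.4 and 19.3 in dsRBD1 mutant cells, against 146, 41.8 and 156 in *adr-2 (-)* cells. *tost-1* had 3.72, 1.81 and 10.02 in dsRBD1 mutant cells, against 108, 21.3 and 91.1 in *adr-2 (-)* cells. Both were lowest in replicate 2 among the *adr-2 (-)* libraries, at 57 and 29 reads.

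*hrde-2* (T01C3.9), which acts with the Argonaute HRDE-1 in inheritance of RNA interference, had 50.2, 49.4 and 35.1 in dsRBD1 mutant cells, against 138, 78.5 and 247 in *adr-2 (-)* cells, and overlaps *nmr-2* on the opposite strand. *grif-1* (Y51F10.2), which encodes a RING finger protein of the germline, had 2.79, 36.7 and 35.8 in dsRBD1 mutant cells, against 245, 93.2 and 111 in *adr-2 (-)* cells. *mzt-1* (W03G9.8), the worm form of the gamma-tubulin partner MOZART1, had 0.930, 28.3 and 25.8 in dsRBD1 mutant cells, against 324, 50.6 and 644 in *adr-2 (-)* cells. dsRBD1 mutant replicate 1 was the lowest library for *grif-1*, *mzt-1* and *erh-2*. The log2 differences were -1.63 for *hrde-2*, -2.98 for *grif-1*, -4.27 for *mzt-1*, -3.87 for *erh-2* and -3.53 for *tost-1*. Without dsRBD1 mutant replicate 1 those of *grif-1*, *mzt-1* and *erh-2* were -1.88, -2.98 and -2.49, while for *hrde-2* and *tost-1* leaving out 1 library gave -2.03 to -1.21 and -4.25 to -3.07.

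The remaining 5 named genes were lower as well in every dsRBD1 mutant library. *txdc-12.2* (F49H12.5), named for a thioredoxin domain, had 100, 76.4 and 101 in dsRBD1 mutant cells, against 241, 183 and 309 in *adr-2 (-)* cells. *trul-1* (B0432.13) had 46.5, 42.7 and 43.7 in dsRBD1 mutant cells, against 110, 88.8 and 124 in *adr-2 (-)* cells, and overlaps B0432.8 and B0432.9 on the same strand. *gex-5* (B0393.6) had 0.930, 12.04 and 10.02 in dsRBD1 mutant cells, against 73.9, 52.1 and 215 in *adr-2 (-)* cells. For *trul-1* the replicates were close in both groups, whereas *gex-5* rested on 1, 20 and 14 dsRBD1 mutant reads. *spsp-1* (F07A5.2) had reads in 1 dsRBD1 mutant library, with 0, 0 and 11.5 against 73.9, 19.1 and 94.3 in *adr-2 (-)* cells. *sut-6* (B0511.7), named as a suppressor of tau pathology, had 42.8, 24.1 and 28.6 in dsRBD1 mutant cells, against 70.3, 103 and 189 in *adr-2 (-)* cells.

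**Figure D5:**
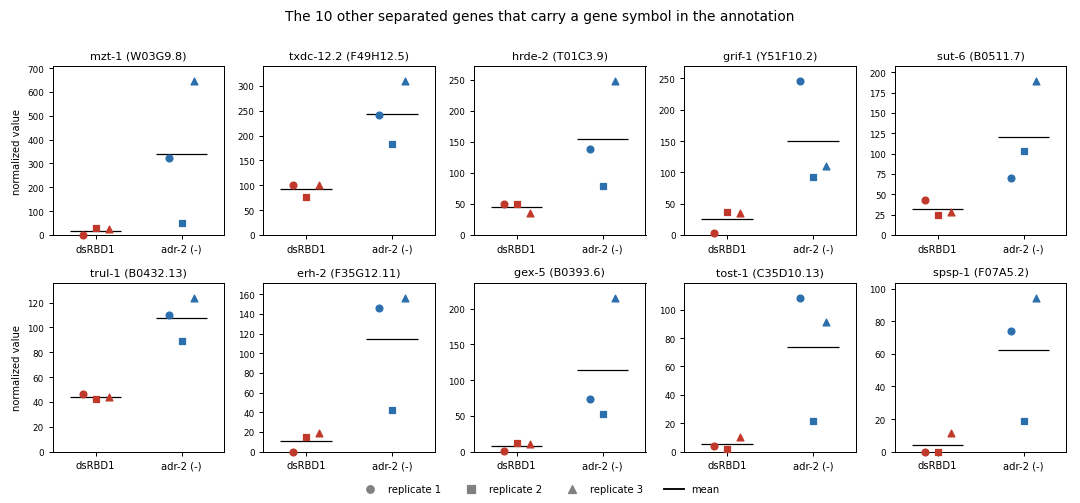
Normalized values of the 10 separated genes that carry a gene symbol and are not among the 12 with the highest mean, drawn with dsRBD1 mutant replicates in red at the left and *adr-2 (-)* replicates in blue at the right, lines at the group means and axes from 0. *trul-1* and *txdc-12.2* have close replicates in both groups, while *mzt-1*, *tost-1*, *gex-5* and *spsp-1* have *adr-2 (-)* replicates spread over at least a 4-fold range.

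For the 23 genes without a dsRBD1 mutant read the ratio of the smallest *adr-2 (-)* value to the largest dsRBD1 mutant value has no upper limit, and they are left out here. Among the other 118 the widest gaps by this ratio lay in genes with 1 or 2 reads over all dsRBD1 mutant libraries, with D1054.10 (ratio 17.7) next. Y62H9A.5 on the X chromosome had 0, 2 and 0 reads in dsRBD1 mutant cells, against 559, 71 and 85 reads in *adr-2 (-)* cells, which stand for values of 504, 52.1 and 276. Its pooled reads per unit of library size were 532 times higher in *adr-2 (-)* cells, with an exact 95% counting interval of 147 to 4399. This interval and those below pool the reads of each group and leave out the spread among replicates. For Y62H9A.5 the highest *adr-2 (-)* value was 9.67 times the lowest. The genes were picked by this same gap, so the intervals are no test of it. Y37D8A.19 had 0, 0 and 1 read in dsRBD1 mutant cells, against 192, 39 and 46 in *adr-2 (-)* cells, and overlaps *rbm-7* on the opposite strand. ZC373.2 had 0, 0 and 1 read in dsRBD1 mutant cells, against 231, 32 and 38 in *adr-2 (-)* cells. B0511.19 had 0, 1 and 0 reads in dsRBD1 mutant cells, against 67, 30 and 59 in *adr-2 (-)* cells, and F53B6.4 had 0, 0 and 1 read in dsRBD1 mutant cells, against 50, 33 and 44 in *adr-2 (-)* cells. For these 4 genes the lower ends of the counting intervals of the ratio were 73.3, 79.7, 41.0 and 33.3. Among the 118 genes with dsRBD1 mutant reads the ratio reached 43.3 at most, had a median of 2.07 and was below 2 in 57 genes and at least 5 in 18.

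At the threshold itself the genes taken and left differed little. Just inside lay the small nuclear RNA gene F08H9.10 at a ratio of 1.501, F57C2.5 at 1.51, F31C3.16 at 1.52 and *srpr-2.2* at 1.53. Just outside lay C26B2.7 at 1.49, *era-1* (W02F12.3) and C45E5.1 at 1.48 and Y110A2AR.1 at 1.46. C26B2.7 had 40.9, 74.0 and 45.1 in dsRBD1 mutant cells, against 128, 144 and 111 in *adr-2 (-)* cells, also without overlap. Y110A2AR.1 had 3.72, 21.1 and 10.02 in dsRBD1 mutant cells, against 295, 30.8 and 267 in *adr-2 (-)* cells. With no factor, 412 sequence-named genes did not overlap and were lower in dsRBD1 mutant cells, and over all names such genes were 6.92% of those with a mean of at least 10.

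Among the 287 genes, 26 pairs came from the same clone, 12 of them with both genes separated, and 9 pairs had no other gene between them. How often other sequence-named genes share a clone or lie side by side was not counted. These pairs are therefore descriptions and do not show that the genes cluster. Besides F23A7.4 and F23A7.8, both genes were separated in 4 adjacent pairs. *sut-6* and B0511.19 lie 128 bases apart on the same strand of chromosome I, and *sut-6* had 46, 40 and 40 reads in dsRBD1 mutant cells where B0511.19 had 1 read in all. Y44A6D.6 and Y44A6D.7 on chromosome V lie 2420 bases apart, and in dsRBD1 mutant cells Y44A6D.6 had no reads and Y44A6D.7 had 0, 0 and 6. R04A9.9 and R04A9.7 on the X chromosome lie 790 bases apart, and R04A9.7 had no read in dsRBD1 mutant cells, against 67, 24 and 19 reads in *adr-2 (-)* cells. ZK813.7 and ZK813.1, also on the X chromosome, lie 1113 bases apart on the same strand. ZK813.7 had 0.930, 0.602 and 0 in dsRBD1 mutant cells, against 136, 8.07 and 631 in *adr-2 (-)* cells, and ZK813.1 had 7.44, 1.20 and 2.15 in dsRBD1 mutant cells, against 112, 13.2 and 302 in *adr-2 (-)* cells. Both ZK813 genes followed the order of replicate 3, replicate 1 and replicate 2 among *adr-2 (-)* libraries.

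The other adjacent pairs joined a separated gene with a tied gene. T28D9.4, in an intron of *del-10*, had 0.930, 1.20 and 14.3 in dsRBD1 mutant cells, against 91.0, 80.0 and 299 in *adr-2 (-)* cells, and its neighbour T28D9.15 had reads in *adr-2 (-)* replicate 3 alone. Y62H9A.4 next to Y62H9A.5 had no dsRBD1 mutant read and 85, 0 and 34 reads in *adr-2 (-)* cells, so both genes of this pair were lowest in replicate 2. F57C2.4 next to F57C2.5 had reads in *adr-2 (-)* replicate 1 alone, 81 of them.

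Further apart within the same clone, ZK973.1 and ZK973.9 on chromosome I were both separated with 3 genes between them. ZK973.1 had 14.9, 95.1 and 69.4 in dsRBD1 mutant cells, against 357, 175 and 690 in *adr-2 (-)* cells. T01C3.3 lies 7 genes from *hrde-2* on chromosome V and had 3.72, 4.21 and 2.86 in dsRBD1 mutant cells, against 271, 50.6 and 228 in *adr-2 (-)* cells. The gap was wider for T01C3.3, with a ratio of 12.02, than for *hrde-2*, with a ratio of 1.56. R144.6, 12 genes from *srpr-2.2*, had 137, 110 and 109 in dsRBD1 mutant cells, against 232, 274 and 316 in *adr-2 (-)* cells. W03D8.8 and W03D8.2 lie on chromosome I with 1 gene between them. W03D8.8 had 42.8, 44.5 and 42.2 in dsRBD1 mutant cells, against 71.2, 145 and 137 in *adr-2 (-)* cells. W03D8.2 had 0, 10.8 and 11.5 in dsRBD1 mutant cells, against 25.2, 49.9 and 169 in *adr-2 (-)* cells, and overlaps W03D8.12 on the opposite strand. C45G9.8 had no dsRBD1 mutant read and C45G9.12, which overlaps C45G9.2 on the opposite strand, had 1, 18 and 18, against at least 28 and at least 45 reads in every *adr-2 (-)* library.

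By annotation 129 of the 141 separated genes (91.5%) are protein-coding, 5 are noncoding RNAs, 3 small nuclear RNAs, 2 small nucleolar RNAs and 2 pseudogenes. Of the 5840 other annotated sequence-named genes with a mean of at least 10, 94.7% are protein-coding. The small RNA genes include W04G5.11, a small nuclear RNA gene without a read in dsRBD1 mutant cells, against values of 12.6, 18.3 and 84.6 in *adr-2 (-)* cells. T27E4.12, of the same kind, had no read in dsRBD1 mutant cells either, against 21.6, 3.67 and 97.6 in *adr-2 (-)* cells. Both were highest in *adr-2 (-)* replicate 3, the library with 52.6% of its reads on *rrn-3.1*. The libraries were made from poly(A) RNA. How evenly that selection took up small nuclear RNAs, small nucleolar RNAs, *srpr-2.1* and *srpr-2.2* across libraries was not tested. Their values may therefore not reflect RNA levels in the cells. Coding sequence was shorter in the separated genes, with a median of 690 bases against 927 in the other genes, and 14.7% of the protein-coding separated genes had fewer than 300 coding bases against 7.63% of the others. Single-exon genes made up 9.93% of the separated genes and 3.25% of the others. Chromosome I held 31 separated genes (21.99%, against 14.98% of the others) and the X chromosome 20 (14.2%, against 15.7%). These shares are descriptions, and the median level also differed, with 52.5 over the separated genes and 103 over the others.

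In the annotation 26 separated genes share exonic bases with a gene on the opposite strand and 7 with a gene on the same strand, 30 in all, and 10 lie inside another gene without sharing exons. The strand setting used for counting these libraries is not given in the sources used here, so reads of such partners may not be told apart. Among separated genes with dsRBD1 mutant reads, the median ratio of means was 6.82 in those that share exonic bases and 14.8 in those that do not.

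The 146 tied genes had no read in dsRBD1 mutant cells and summed to 1668, 383 and 16436 in *adr-2 (-)* replicates 1, 2 and 3. Their level thus lay almost wholly in *adr-2 (-)* replicate 3, the shallowest library, where 131 of them had reads, against 44 in replicate 1 and 28 in replicate 2. Reads were present in 2 *adr-2 (-)* libraries for 57 tied genes and in 1 for 89, of which 82 had them in replicate 3 alone, 7 in replicate 1 alone and none in replicate 2 alone. In replicate 3 the tied genes with reads had a median of 36 reads and at most 90. Without that library 20 of the 146 had a mean of at least 10. The highest single values were those of F59A6.12, with 37.8, 0 and 293 in *adr-2 (-)* cells, and of C15C7.6, C46C2.6 and C04C11.18, which had 273, 263 and 228 in replicate 3 and 0 in replicates 1 and 2.

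The tied genes had other shares of gene kinds than the separated genes, but their level differed too. Their median mean was 19.5 normalized units, against 52.5 over the separated genes. Only 20 of them kept a mean of at least 10 without *adr-2 (-)* replicate 3. The shares below therefore describe mainly genes taken through that library. Protein-coding genes were 61.6% of them (90 genes), noncoding RNAs 25.3% (37) and pseudogenes 10.96% (16), and 34.9% had a single exon. The X chromosome held 25.3% of them and chromosome I 9.59%. Of the other sequence-named genes with a mean of at least 10, 94.7% were protein-coding and 3.25% had a single exon. The X chromosome held 15.7% of those and chromosome I 14.98%, and their median mean was 103. A gene symbol was attached to 5, *try-14* (F48E3.4), *slc-25A18.2* (F55G1.5), *sgnh-1* (T08B6.5), *rabr-3* (F11A5.4) and *exh-1* (C36C5.5). *try-14*, named as a trypsin-like protease gene, had 105, 0 and 172 in *adr-2 (-)* replicates 1, 2 and 3, *slc-25A18.2*, of the mitochondrial carrier family, had 59.5, 0 and 150, and *exh-1* had 64.9 in replicate 1 alone. For none of these genes can the groups be called separated, since every dsRBD1 mutant library and at least 1 *adr-2 (-)* library were at 0.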

How the data were processed

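Poly(A) RNA from neural cells of L1 animals was sequenced as 75 bp single-end stranded reads, 3 libraries per group. Per the study's methods, reads were aligned to WS275 with STAR 2.7.8a, unique alignments were kept, and featureCounts and DESeq2 were run. The signal that the authors deposited is the read count of each gene divided by 1 size factor per library. Every value (100%, within 0.01 reads) was a whole multiple of the smallest value of its library, which gave back the reads. The deposited log2 fold changes, p-values and adjusted p-values of the authors' comparison were not used.

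The test across genes was limma-trend (limma 3.58.1, R 4.3.3), fitted to log2(value + 1) and adjusted by Benjamini-Hochberg. The recovered reads were given to edgeR 4.0.16 and to DESeq2 1.42.0. These were tested on simulated data. Because the reads are recovered, the floor was taken as 3 reads per library (at most 5.3e-05% of a library). Members were chosen on this contrast, and the members and lists were chosen with earlier results of these data known. Genes named are the 12 with the highest mean, the 6 with the widest gap, the 4 on either side of the threshold, those with a chosen neighbour or clone partner, those with a symbol and the 4 highest tied genes. Genes cited in a group summary beyond these were chosen after their values were seen. Coordinates and symbols are those of WBcel235 (Ensembl release 115), in which 19784 of 19793 identifiers and all 287 members were found. Alternatives were other pseudocounts, filters, scalings, rule settings, a block for the replicate number, and each library left out in turn. Sequences were not used here.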

Additional observations from a re-analysis of the deposited data

How the results depend on the processing

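The number of genes changed across the whole table, 0 with limma, became 3 without a filter on low values and 317 with DESeq2, and 0 to 11 with 1 library left out (11 without *adr-2 (-)* replicate 2, 8 without dsRBD1 replicate 1). It stayed at 0 with a pseudocount of 0.5, TMM, library totals, library totals without the rrn genes, at least 10 reads in every library and edgeR. With the replicate number as a block it was 21 (18 lower, 3 higher), but the libraries share only a number, since the deviations of same-numbered libraries correlated at -0.09, 0.04 and -0.06, and the block left the median of the separated genes at -3.92.

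The rule took 72 genes with a minimum mean of 50, 141 with reads required in every *adr-2 (-)* library, 133 with at least 3 reads there, and 282 to 581 with 1 library left out. The separated genes numbered 412 with no factor, 84 with a factor of 2, 71 with a minimum mean of 50 and 216 to 462 with 1 library left out, where the rule asks less of fewer libraries. Of the 141, 115 were still taken without *adr-2 (-)* replicate 3, 138 without replicate 1 and 140 without replicate 2. Scaling by library totals took 150 separated genes, 126 of them among the 141, and moved the median of all genes to 0.21. The alternative without the rrn genes, the counts of separated genes and the counts of genes moved by a left-out library were chosen after seeing the data.

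The median log2 difference of the separated genes was -4.40 with a pseudocount of 0.5 and -4.43 to -3.27 with 1 library left out. Over the 31 separated genes with at least 10 reads in every library it was -1.51. That filter drops genes with few or no dsRBD1 mutant reads. Among 68 named genes, 650 of 656 values under other settings moved by less than the residual SD of the gene. With 3 libraries per group, leaving 1 out cannot move a difference by that SD. For single libraries this count therefore says nothing. Genes with few reads cannot be placed more closely than their counting intervals, and 3 reads of *adr-2 (-)* replicate 3 stand for a value of 9.76.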

Other observations

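Partners of the named members were looked up after the values had been seen. Of the other PETISCO subunits, *ife-3*, which encodes a cap-binding protein, had 259, 203 and 252 in dsRBD1 mutant cells, against 637, 286 and 416 in *adr-2 (-)* cells, without overlap. *tofu-6* had 101, 18.7 and 22.2 in dsRBD1 mutant cells, against 395, 69.7 and 224 in *adr-2 (-)* cells, and the groups overlapped. *pid-3* (Y23H5A.3) had 71.6, 39.1 and 80.2 in dsRBD1 mutant cells, against 150, 36.0 and 3.25 in *adr-2 (-)* cells, also with overlap. *pid-1*, which takes the place of TOST-1 in piRNA production, had 49, 0 and 5 reads in dsRBD1 mutant cells, against 0, 1 and 0 in *adr-2 (-)* cells.

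*hrde-1*, the partner of *hrde-2*, had 185, 199 and 196 in dsRBD1 mutant cells, against 492, 272 and 813 in *adr-2 (-)* cells, without overlap. *rbm-3.2* (R09B3.3), which lies next to *rbm-3.1*, had 66.0, 52.4 and 90.2 in dsRBD1 mutant cells, against 357, 112 and 725 in *adr-2 (-)* cells, without overlap. Both were lowest in *adr-2 (-)* replicate 2 and highest in replicate 3 of that group.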
